A study of Danio rerio with 16 samples.

Results

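The 150 transcripts described here fell steeply between 4 and 7 hours post fertilisation (hpf) in the primordial germ cells (PGCs) and in the somatic cells of zebrafish embryos alike. They were selected on CPM, the read count of a gene scaled to a common library total. A gene had to reach 10 CPM in all 4 libraries of 4 hpf. Its level, log2(mean CPM of the 2 replicates + 1), had to change by -1.5 or less by 7 hpf in PGCs and likewise in soma. Of 34289 Ensembl genes, 7408 reached that level at 4 hpf, 712 of these (9.61%) passed both thresholds, and the 150 with the lowest mean of the 2 changes were taken. The members were thus chosen by their levels at 4 and 7 hpf, and the values of those stages are given as a description, with no test. Tests compared the 24 and 36 hpf libraries, which the choice did not use. The spread in these tests was estimated over all 16 libraries, those of 4 and 7 hpf included.

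An early embryo lives on RNA that the mother laid down in the egg. This maternal RNA is removed in steps, first by factors that the egg supplied and later by factors that the embryo makes once its own genome is active, among them a microRNA family that shortens poly(A) tails. PGCs inherit germ plasm, and RNA-binding proteins such as Dnd1 are known to shield some transcripts in them from this removal. The zebrafish genome is already active at 4 hpf, so a transcript seen then can be maternal, newly made or both. Reads of total RNA do not tell these apart.

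All libraries came from embryos that carried a transgene labelled kop-EGFP-F-nos3'UTR-cry-DsRed, in which an early germline promoter drives a membrane EGFP and the nos3 3' end limits it to germ cells. PGCs and somatic cells were separated by fluorescence-activated cell sorting at the blastula stage (4 hpf), the gastrula stage (7 hpf) and, in the pharyngula, at 24 and at 36 hpf. Embryos past 24 hpf were kept in N-phenylthiourea, which blocks pigment, so in the comparisons of 36 with 24 hpf this agent and the stage cannot be told apart. The eggs of the study were raised at more than one temperature, and the sources used here do not give that of each library. There were 2 libraries in each of the 8 groups, PGC and soma at each of the 4 stages. The labels do not say whether replicates came from separate clutches, so the p-values below measure the spread between these libraries.

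The libraries held 2825775 to 15633266 expected counts. In the germ cell marker list (8 genes, nanos3, dnd1 and ddx4 among them) the summed level was 557 to 12008 CPM in PGC libraries and 3.72 to 428 CPM in soma libraries. Markers of other tissues were present in some PGC libraries too. The 6 epidermis markers summed to 12713 and 6247 CPM in PGCs at 7 hpf, against 807 and 2575 CPM in soma, and the 5 muscle markers found summed to 19968 and 30515 CPM in PGCs at 24 hpf, against 2297 and 24985 CPM in soma. At 36 hpf, PGC replicate 1 stood apart from replicate 2, with germ cell markers at 1421 and 4353 CPM, neural markers at 1687 and 235 CPM, and blood markers at 640 and 45.8 CPM in these 2 libraries. The part of these cells in the results below was not tested. One label of soma replicate 1 at 24 hpf names PGCs. Its title and cell type name soma, its germ cell markers summed to 8.67 CPM, and it was used as soma. Gene symbols are spelled as in the table that pairs them with Ensembl identifiers, which names 128 of the 150 members. The other 22 have an identifier only.

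In summed level, the members made up 21002 and 16241 CPM of the 2 PGC libraries at 4 hpf, against 21422 and 15563 CPM of the soma libraries. At 7 hpf they summed to 2268 and 2188 CPM in PGCs, against 840 and 461 CPM in soma. In bulk samples, fewer cells holding a transcript and less of it per cell cannot be told apart. The median member stood at 80.4, 8.32, 2.89 and 7.97 CPM in PGCs over the 4 stages, and at 77.5, 2.28, 2.39 and 2.101 CPM in soma. Over the 7408 genes the medians were 59.5, 48.1, 31.8 and 49.2 CPM in PGCs and 57.5, 35.5, 34.3 and 36.1 CPM in soma. The PGC median thus rose from 24 to 36 hpf over these genes as well. The libraries of 4 and 7 hpf did not overlap for any of the 150 members in either cell type, which the choice of members largely fixes.

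**Figure D1:**
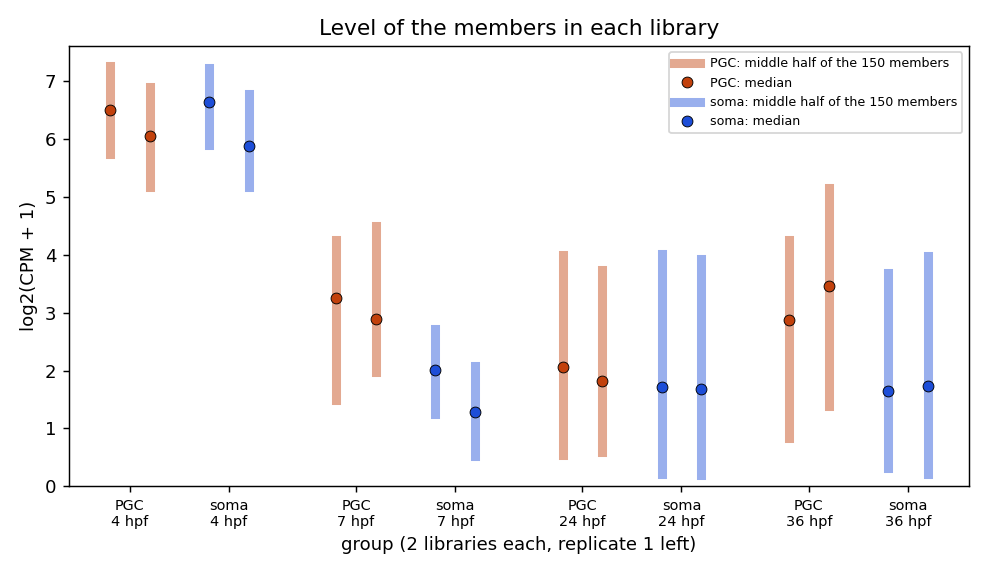
Level of the 150 members in each of the 16 libraries, as log2(CPM + 1), with PGC libraries in orange and soma libraries in blue; dots are medians over the members and bars run from the lower to the upper quartile. The medians drop between 4 and 7 hpf in both cell types, lie lower in soma than in PGCs at 7 hpf, and at 36 hpf stand at 6.35 and 10.1 CPM in the PGC libraries, above the 2.15 and 2.32 CPM of the soma libraries.

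The fall was deeper in soma for most members. The median 4 to 7 hpf change of the log2 level was -3.14 in PGCs (range -5.80 to -1.58) and -4.42 in soma (range -7.54 to -2.69). In all, 129 of the 150 members (86.0%) fell further in soma, as did 66.2% of the 7408 genes. Of the other 562 genes past both thresholds 84.7% did so, so this was not particular to the members. The scaling bears on this. The median change over the 7408 genes was -0.29 in PGCs and -0.62 in soma on plain CPM, and -0.09 in PGCs and -0.05 in soma when libraries were scaled by TMM, which assumes that most genes do not change. On the TMM scale the members' medians were -2.88 in PGCs and -3.86 in soma, and 125 members fell further in soma, beside 47.8% of the 7408 genes. On the deposited TPM values, which are scaled for transcript length and to a common total, 100 members fell further in soma, beside 35.6% of the genes. In soma the gene with the highest TPM took 46.6% and 40.2% of that total at 4 hpf, and 18.8% and 24.5% at 7 hpf. In PGCs it took 44.6% and 34.9% at 4 hpf, and 38.4% and 27.6% at 7 hpf. The part of this in the TPM counts was not tested. At 7 hpf the PGC libraries both exceeded the soma libraries for 91 members, and both fell short of them for 18. Over the 20534 genes with enough counts, these shares were 32.6% and 14.3%, and over the 7408 genes 45.2% and 20.2%. On the TMM scale PGCs lay above soma for 75 members and below for 21. There the shares were 23.3% and 23.4% of the 20534 genes, and 29.5% and 35.7% of the 7408 genes.

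**Figure D2:**
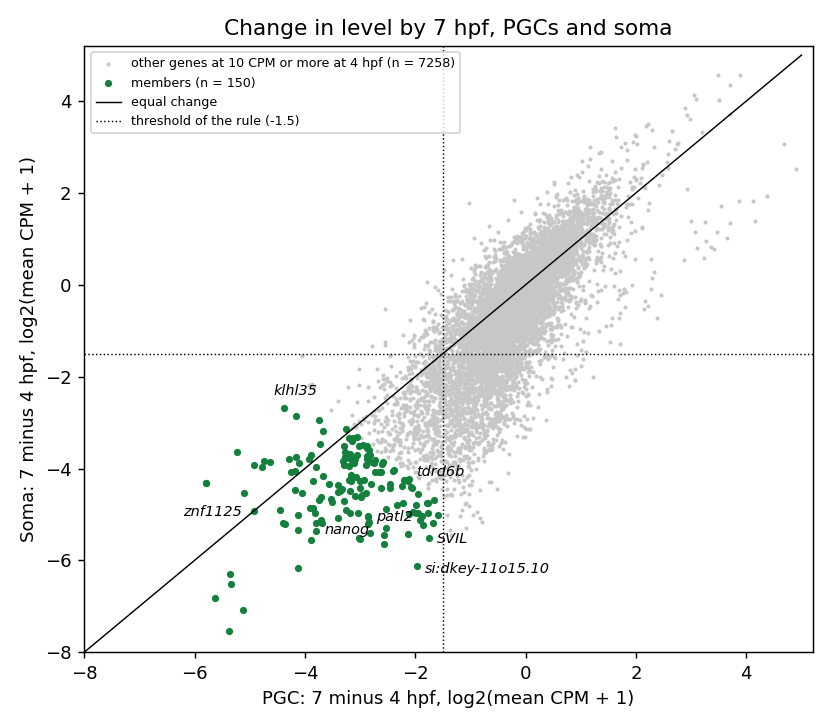
Change of log2(mean CPM + 1) by 7 hpf in PGCs (x axis) and soma (y axis) for the 150 members in green and the other genes at 10 CPM or more at 4 hpf in grey; the solid line marks equal change and the dotted lines the thresholds of the rule. Most members, 129 of 150, lie below the line of equal change.

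Among the members with the lowest mean change, the leading gene has no symbol. ENSDARG00000077712 had 1008 and 678 CPM in PGCs of the blastula and 19.8 and 18.6 CPM in those of the gastrula. In soma it had 1527 and 817 CPM in the blastula and 10.01 and 0.611 CPM in the gastrula. The next gene, ENSDARG00000100673, had 61.5 and 52.0 CPM in PGCs and 129 and 112 CPM in soma at 4 hpf, and was at or under 0.332 CPM in all 12 later libraries. For genes like these the change is bounded by the pseudocount of 1 CPM, so the ranking favours genes that start high. The pair si:dkey-188c14.4 and si:ch211-139k8.4 held identical counts in every library, so the values of each are uncertain. Whether they are copies that share reads was not tested. At 488 and 284 CPM in PGCs at 4 hpf and 7.998 and 3.93 CPM at 7 hpf, they showed the largest PGC change of the list (-5.80). In soma they had 474 and 381 CPM at 4 hpf and 26.05 and 15.2 CPM at 7 hpf, a change of -4.31.

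A series of zinc finger genes numbered from znf1000 upward gave 6 members, of 41 at 10 CPM or more at 4 hpf. Close relatives can share reads, so single values of these genes are uncertain as well. Summed over the 6, PGCs held 422 and 261 CPM at 4 hpf and 20.3 and 14.0 CPM at 7 hpf. Soma held 761 and 560 CPM at 4 hpf and 46.8 and 45.5 CPM at 7 hpf. These 6 thus started higher in soma, without overlap of the libraries. One of them, znf1125, had 32.6 and 38.3 CPM in PGCs and 50.8 and 51.0 CPM in soma at 4 hpf. By 7 hpf it was at 0.415 and 0 CPM in PGCs and at 0.792 and 0.611 CPM in soma, and in the 8 libraries of 24 and 36 hpf it was at 0 in all but one, with 0.268 CPM.

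The most abundant member at 4 hpf was nanog, a homeobox factor that acts with Pou5f3 and SoxB1 proteins to switch on the zygotic genome. It stood at 2087 and 1600.3 CPM in PGCs and 2086 and 1924 CPM in soma at 4 hpf, and at 174 and 89.0 CPM in PGCs and 75.6 and 33.0 CPM in soma at 7 hpf. It was also the highest member per length at 4 hpf, at 489 TPM in PGCs and 424 TPM in soma (the authors' TPM, averaged over 2 libraries). The members as a whole were not an abundant class. Their median TPM at 4 hpf lay at the 61.1 percentile of the 7408 genes in PGCs and at the 59.6 percentile in soma, and at 7 hpf at the 5.62 percentile in PGCs and the 4.97 percentile in soma. Their median effective length, the stretch of transcript in which a read can start, was 2043 bases, against 2123 bases over the 7408 genes.

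The gene lists of known function touched few members, and no test was run on these counts. Of all genes at 10 CPM or more at 4 hpf, 2.02% were members and 9.61% passed both thresholds. The list of oocyte and egg genes held a larger share of each. As the lists were drawn up with earlier results of these data known, this larger share is a description only. The list of oocyte and egg genes held 32 genes at 10 CPM or more at 4 hpf, of which 9 passed both thresholds and 6 were members: buc, cth1, cldnd, cldng, slbp2 and ZAR1L. Bucky ball (buc) organises the germ plasm of the oocyte. It had 327 and 249 CPM in PGCs and 228 and 93.1 CPM in soma at 4 hpf, and 27.8 and 24.7 CPM in PGCs and 6.48 and 5.70 CPM in soma at 7 hpf. The claudin cldnd, a tight junction protein, had 100 and 56.7 CPM in PGCs and 148 and 76.1 CPM in soma at 4 hpf, and 5.61 and 3.78 CPM in PGCs and 2.45 and 1.02 CPM in soma at 7 hpf. For cth1, a zinc finger protein of the family that binds AU-rich RNA, the 4 hpf values were 193 and 93.6 CPM in PGCs and 227 and 101 CPM in soma, and those of 7 hpf were 15.6 and 11.9 CPM in PGCs and 9.50 and 1.22 CPM in soma.

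Of 52 genes of mRNA decay and translation repression at that level, 5 passed both thresholds and 3 were members, patl2, LSM14B and again cth1. Both patl2 and LSM14B code for proteins of the RNA granules that hold oocyte messages silent, known from vertebrate oocytes. LSM14B had 178 and 172 CPM in PGCs and 150 and 104 CPM in soma at 4 hpf, 19.5 and 27.6 CPM in PGCs and 3.31 and 1.83 CPM in soma at 7 hpf, and at most 0.940 CPM thereafter. Of 39 genes of oocyte maturation and M-phase control, 3 passed and 1, CCNA1, was a member. This cyclin of germ cells and early cleavage had 236 and 238 CPM in PGCs and 340 and 221 CPM in soma at 4 hpf, and 15.8 and 37.8 CPM in PGCs and 18.0 and 3.26 CPM in soma at 7 hpf. Of 23 chromatin and genome activation factors nanog alone passed. The lists of DNA replication and repair (46 genes at that level) and of ubiquitin, apoptosis and signalling (28 genes) held no member. In the first, 3 genes passed both thresholds (mcm3l, GMNN and recql4), and in the second 1, casp8. The list of cytoskeleton and adhesion (32 genes) held the claudins cldnd and cldng. None of the 8 germ cell markers was a member, and only 5 of them were at that level. With 2.02% of all genes at that level being members, lists this short would hold few or none. The lists without a member thus do not show that such genes were spared.

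A few further members have a known maternal role in zebrafish and were picked for it after their values were seen. The gene lrmp, needed for the fusion of the pronuclei, had 412 and 209 CPM in PGCs and 466 and 495 CPM in soma at 4 hpf, and 26.8 and 17.5 CPM in PGCs and 31.5 and 3.87 CPM in soma at 7 hpf. Syntabulin (sybu), which carries dorsal determinants along microtubules, had 73.6 and 44.97 CPM in PGCs and 60.2 and 40.1 CPM in soma at 4 hpf, and was at or under 3.05 CPM in every later library. For mid1ip1l, which acts on actin in the cleaving embryo and gathers germ plasm, the 4 hpf values were 145 and 149 CPM in PGCs and 134 and 77.5 CPM in soma, and those of 7 hpf were 20.2 and 8.73 CPM in PGCs and 3.89 and 1.22 CPM in soma. As all 3 are members, their steep drop in both cell types was set by the rule.

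At 4 hpf the PGC libraries were both above the soma libraries for 26 members and both below them for 31. Of the 7408 genes 17.5% and 19.1% did so, much as for the members. With 2 libraries a group, an overlap does not show that levels were alike. The widest difference was that of rgs14a, a regulator of G protein signalling, with 1067 and 1106 CPM in PGCs and 58.8 and 42.3 CPM in soma at 4 hpf. At 7 hpf it had 298 and 119 CPM in PGCs and 1.01 and 3.26 CPM in soma, the widest difference of log2 level of the list at that stage (6.06). It passed the rule, with changes of -2.38 in PGCs and -4.04 in soma, but the 2 cell types did not share its level. NDEL1, a partner of dynein, came after rgs14a and si:dkey-11o15.10 in this order, with 80.6 and 76.5 CPM in PGCs and 4.17 and 3.46 CPM in soma. The gene si:dkey-11o15.10 showed the widest gap between the 2 changes, with -1.97 in PGCs and -6.12 in soma: it held 30.1 and 27.7 CPM in PGCs and 0.863 and 0 CPM in soma at 7 hpf. In the other direction the change was deeper in PGCs by more than 1 for 5 members, and deeper in soma by more than 1 for 87. Of the 7408 genes, 194 and 1765 did so.

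As further examples, 5 members were picked, after their values were seen, from the 25 members named in the study's lists of genes upregulated in PGCs. Those lists came from RNA-seq of the same study, so a higher level in PGCs was largely built into the choice. All 5 fell further in soma, as 129 of the 150 did. MKNK2, a kinase that phosphorylates the cap-binding factor of translation, had 255 and 193 CPM in PGCs and 187 and 135 CPM in soma at 4 hpf, and 29.3 and 44.5 CPM in PGCs and 3.17 and 2.24 CPM in soma at 7 hpf. For the adenylyl cyclase ADCY5 the values of 7 hpf were 36.8 and 42.8 CPM in PGCs and 3.02 and 3.05 CPM in soma, after 149.5 and 147 CPM in PGCs and 175 and 86.8 CPM in soma at 4 hpf. ARHGEF28 had 30.1 and 39.1 CPM in PGCs and 3.02 and 0.611 CPM in soma at 7 hpf, and phactr2 had 17.7 and 11.05 CPM in PGCs and 0.288 and 0.815 CPM in soma. The clock-associated gene ciarta had changes of -1.58 in PGCs, the smallest PGC change of the list, and -5.01 in soma. In MKNK2 and ADCY5 the libraries of the 2 cell types lay clearly apart at 7 hpf, with PGCs higher, while at 4 hpf their ranges overlapped or lay close. Not all members in those lists took this course, as rgs14a, also among them, was already far higher in PGCs at 4 hpf.

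The edge of the list was not a natural break. The last 3 members, ERAP1, CCSER2 and srgap1b, had mean changes of -3.18, -3.18 and -3.17. The first 3 genes outside, EEIG1, TBC1D24 and TESK1, each had -3.16. The other 562 genes past both thresholds had median changes of -1.86 in PGCs and -2.76 in soma.

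After 7 hpf the members took different courses. In 24 members (16%) the mean level was under 1 CPM in all 4 late groups (PGC and soma at 24 and 36 hpf), as it was in 0.769% of the 7408 genes and in 2.49% of the other 562 past both thresholds. Among these 24 were 4 of the 6 zinc finger genes, cldnd, cldng, cth1, LSM14B, ZAR1L, zglp1 and TMEM144. TMEM144, for instance, was at 0 in each of the 8 late libraries. In 41 members (27.3%) the mean was at 10 CPM or more in all 4 late groups, as in 78.1% of the 7408 genes and 50.5% of the other 562. These levels of 1 and 10 CPM were set after the values were seen. CPM grows with length, and the 41 were longer, with a median effective length of 3584 bases against 1331 bases for the 24. These shares and lengths are a description, since the grouping used the late levels.

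The 41, of which some are named here after their values were seen, included kinases and receptors (EPHB2, FYN, TAOK3, CDC42BPA, AATK, GRK6), regulators of small GTPases (RALGAPA2, ARHGEF28), microtubule and actin proteins (KIF13B, CAMSAP1, NDEL1, SVIL, PACSIN3), the adenylyl cyclases ADCY5 and ADCY9 and the chromatin remodeller smarca2. EPHB2, a receptor for ephrin-B ligands, went through 103 and 104 CPM, 13.3 and 10.8 CPM, 77.2 and 35.5 CPM, then 194 and 78.0 CPM in PGCs over the 4 stages. In soma the same stages gave 150 and 108 CPM, 3.74 and 6.31 CPM, 99.1 and 64.3 CPM, then 243 and 166 CPM, the highest soma level of the list at that stage. The ATPase smarca2 was highest in PGCs at 36 hpf, with 119 and 231 CPM against 87.5 and 93.5 CPM in soma, after 45.7 and 56.7 CPM in PGCs and 9.50 and 8.15 CPM in soma at 7 hpf. With these 2 genes, CDC42BPA and RALGAPA2 were among the 5 highest at 36 hpf in both cell types, joined by SVIL in PGCs and IGDCC3 in soma. CDC42BPA, a kinase that acts with Cdc42 on the cytoskeleton, had 124 and 136 CPM in PGCs at 36 hpf, against 112 and 123 CPM in soma, so that these libraries barely parted. For none of these 6 genes was the difference between PGCs and soma called at 36 hpf.

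**Figure D3:**
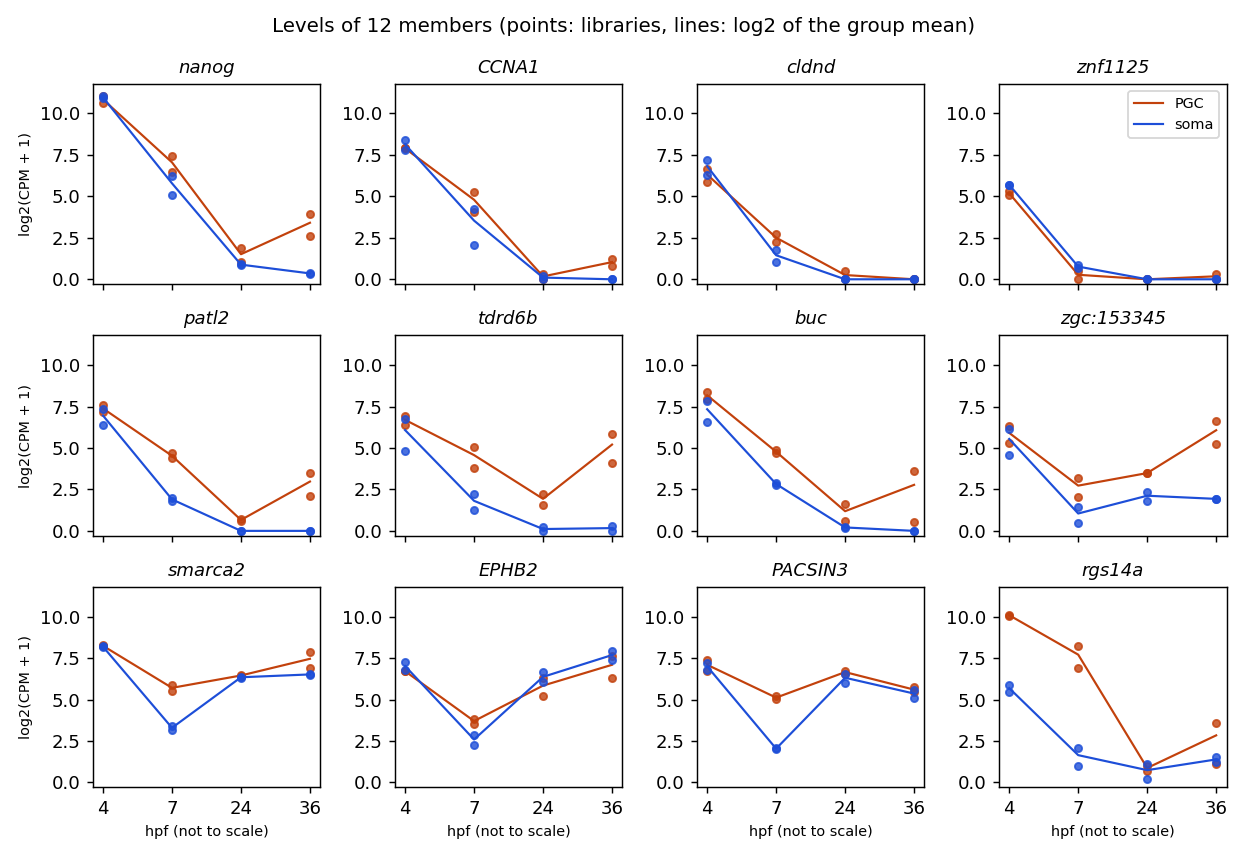
Levels of 12 members over the 4 stages as log2(CPM + 1), PGC in orange and soma in blue, points being libraries and lines the log2 of the group mean plus 1; stages are evenly spaced and not to scale. All drop by 7 hpf; CCNA1, cldnd and znf1125 stay near 0 at 24 hpf, smarca2, EPHB2 and PACSIN3 lie above their 7 hpf level again in both cell types at 24 hpf, and patl2, tdrd6b, buc, nanog and zgc:153345 lie higher in PGCs than in soma at 36 hpf.

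Whether the 2 cell types differed at 24 and 36 hpf was tested with edgeR's quasi-likelihood test, fitted to all 16 libraries and adjusted by Benjamini-Hochberg over 20536 genes. Calls needed an adjusted p below 0.05 together with a log2 fold change of more than 1.5 in either direction. All 150 members entered the test, through their counts at 4 hpf. With the libraries of 24 and 36 hpf only, 109 members entered. Of the 150, 88 had 10 or more counts in both libraries of PGC or soma at 24 hpf, and 105 at 36 hpf, so that for the rest a change was hard to detect at this depth.

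At 24 hpf edgeR called no member, with 0.039% of all genes called higher in PGCs and 0% called lower. With an unadjusted p under 0.05 and the same fold, 13 members were higher and 3 lower in PGCs, beside 2.15% and 0.575% of all genes. DESeq2 called 1 member, with 0.229% of all genes called, and limma on log2(TPM + 1) called none, with 0.145%. That 1 was KANK1, a regulator of actin at the cell cortex, at 3.11 and 2.03 CPM in PGCs and at 0 counts in both soma libraries, which makes PGCs at least 11.1-fold higher against a floor of 3 counts over the group (edgeR adjusted p = 0.0629). On CPM, the PGC libraries were both above the soma libraries for 34 members and both below for 16, beside 17.3% and 15.7% of the genes tested. The median log2 fold change was 0.20 over the members and 0.06 over all genes tested.

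At 36 hpf, 6 members were called higher in PGCs (4.00% of the 150), with 0.506% of all genes called in that direction, and none was called lower, with 0.0146%. At an unadjusted p under 0.05 and the same fold the counts were 33 higher and 1 lower, beside 6.06% and 2.76% of all genes. The 6 were patl2, tdrd6b, nanog, zgc:153345, KANK1 and LY75. Over the 562 other genes past both thresholds, 5 were called higher (0.890%) and 1 lower. The median log2 fold change was 0.58 over the members, against 0.00 over all genes tested. Members with no counts at this stage, such as TMEM144 and cldnd, enter that median at 0. On CPM, the PGC libraries were both above the soma libraries for 70 members and both below for 4, beside 41.4% and 11.5% of the genes. On the TMM scale these counts were 58 and 8, beside 29.1% and 24.0%.

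The Pat1 homologue patl2 had 3.38 and 10.3 CPM in PGCs at 36 hpf, against 0 counts in both soma libraries, and 117 PGC counts set against a floor of 3 counts over the soma group make it at least 29.5-fold higher in PGCs (edgeR adjusted p = 0.00249). For tdrd6b, a tudor domain gene related to components of germ granules, the values were 15.9 and 55.8 CPM in PGCs and 0.246 and 0 CPM in soma. The ratio of its 604 and 2 counts, scaled for depth, was 229 (95% interval 63.0 to 1892, counting error only; edgeR adjusted p = 0.00576). The homeobox gene nanog had 5.16 and 14.1 CPM in PGCs against 0.246 and 0.310 CPM in soma, a log2 fold change of 4.53 ± 0.74 (SE, adjusted p = 0.0122). Even so, its level in PGCs at 36 hpf was a small part of the 2087 and 1600.3 CPM of 4 hpf. All 3 were thus low or absent in soma at 36 hpf, and in PGCs at 24 hpf they stood between 0.509 and 3.69 CPM.

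The remaining 3 were also measured in soma. The gene zgc:153345, whose function is not given here, had 36.0 and 96.3 CPM in PGCs and 2.83 and 2.79 CPM in soma, a log2 fold change of 4.05 ± 0.69 (SE, adjusted p = 0.0157). KANK1 had 8.12 and 22.7 CPM in PGCs and 1.60 and 0.619 CPM in soma, a change of 3.25 ± 0.61 (adjusted p = 0.0304). LY75, an endocytic receptor known from immune cells, had 33.3 and 87.8 CPM in PGCs and 2.95 and 8.83 CPM in soma, a change of 2.85 ± 0.54 (adjusted p = 0.02805). In all 6 the PGC and soma libraries did not overlap, and PGC replicate 2 was higher than PGC replicate 1.

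**Figure D4:**
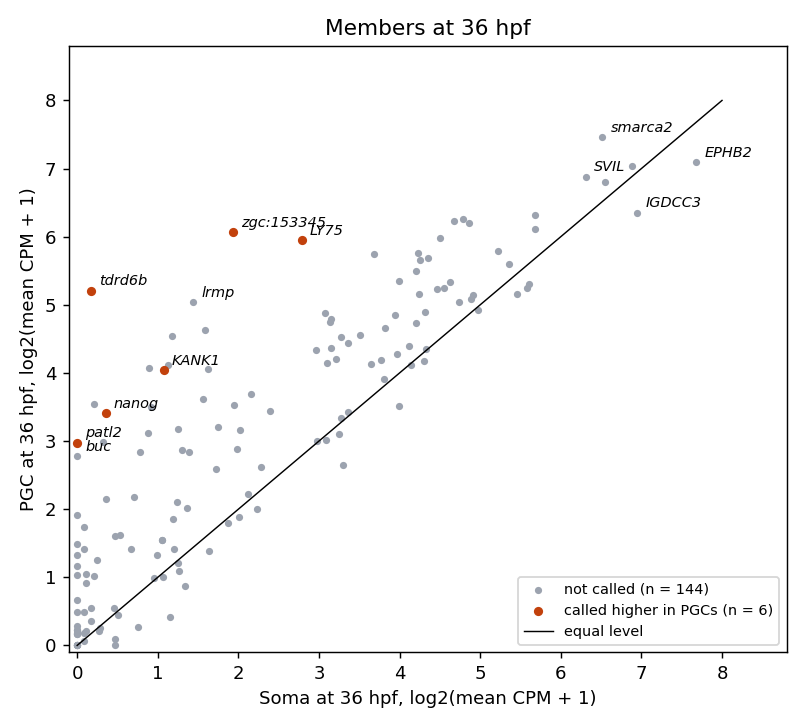
Mean level of each member at 36 hpf as log2(mean CPM + 1), soma on the x axis and PGCs on the y axis, with the 6 members called higher in PGCs in orange and the other 144 in grey; the line marks equal level. The 6 lie above the line; smarca2 and EPHB2 lie near it at the high end.

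Of the members that were not called, 4 are given here, CRACR2A and senp6b after their values were seen. For buc the PGC values at 36 hpf were 0.423 and 11.3 CPM, with 0 counts in both soma libraries (at least 22.5-fold higher, adjusted p = 0.103). For lrmp they were 13.8 and 50.1 CPM, against 2.34 and 1.08 CPM in soma (adjusted p = 0.0757). CRACR2A, a regulator of store-operated calcium channels, had 9.73 and 34.6 CPM in PGCs and 1.11 and 1.39 CPM in soma (adjusted p = 0.0672). For senp6b, a SUMO protease, the values were 1.27 and 4.30 CPM in PGCs and 0 counts in soma (at least 11.9-fold higher, adjusted p = 0.0552).

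The calls at 36 hpf rested on single libraries to a large degree. Without PGC replicate 1, the library low in germ cell markers, 23 members were called, 21 higher and 2 lower in PGCs, with 7.73% of all genes called in either direction. The 6 were among them, with buc, senp6b, lrmp, CRACR2A, chtopb and GTF3A, and EPHB2 and zgc:64022 were the 2 called lower. Without PGC replicate 2 the called members were tdrd6b and patl2 (0.155% of all genes called). Without soma replicate 1 they were KANK1, patl2 and tdrd6b (0.747%), and without soma replicate 2 LY75, si:ch211-137a8.2 and patl2 (0.182%). Of the 6, patl2 alone was called in each of these 4 fits, and none of the 6 changed direction in any fit tried. Over these 4 fits the log2 fold change ran from 2.22 to 3.87 for LY75, from 2.59 to 4.03 for KANK1, from 3.43 to 4.41 for zgc:153345 and from 3.89 to 4.90 for nanog. With the libraries of 24 and 36 hpf only, zgc:153345 alone was called, with 0.126% of all genes called. Limma on log2(TPM + 1) called LY75, KANK1 and zgc:153345, with 3.15%. Neither of the last 2 fits called patl2.

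Between 24 and 36 hpf, 1 member was called higher and 1 lower at 36 hpf in PGCs, with 0.185% of all genes called higher and 1.69% called lower. At an unadjusted p under 0.05 the counts were 20 higher and 9 lower, beside 2.49% and 6.29% of all genes. The median log2 change in this fit was 0.37 over the members and 0.02 over all genes tested. Higher was patl2, with 3.38 and 10.3 CPM at 36 hpf against 0.649 and 0.509 CPM at 24 hpf (log2 change 2.75 ± 0.55, SE, edgeR adjusted p = 0.0264). Lower was PACSIN3, an endocytic adaptor that binds membranes and actin regulators, with 42.4 and 52.5 CPM at 36 hpf against 106 and 93.5 CPM at 24 hpf (log2 change -1.78 ± 0.34, adjusted p = 0.0186). PACSIN3 is abundant in muscle, and the muscle markers summed to 583 and 1939 CPM in PGCs at 36 hpf, against 19968 and 30515 CPM at 24 hpf. Their part in this change was not tested. Without PGC replicate 1 of 36 hpf 9 members were called, among them both genes, with 4.37% of all genes called. The calls of both genes did not hold in all fits with 1 library left out. Over the 4 fits that each left out 1 PGC library of 24 or 36 hpf, the log2 change kept its direction. It ran from 2.01 to 3.28 for patl2 and from -1.81 to -1.75 for PACSIN3.

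In soma edgeR called no member between 24 and 36 hpf, with 0% of all genes called in either direction. At an unadjusted p under 0.05, 8 were higher and 9 lower at 36 hpf, beside 2.85% and 3.79% of all genes. DESeq2 called 4, with 1.5% of all genes called, and limma on log2(TPM + 1) called none, with 1.75%. PACSIN3 moved the same way in soma, with 33.1 and 47.1 CPM at 36 hpf against 63.8 and 93.5 CPM at 24 hpf (log2 change -1.18 ± 0.34, adjusted p = 0.223). The difference between the PGC and soma changes was called for no member by edgeR, DESeq2 or limma, with 0%, 0.0341% and 0.107% of all genes called in these 3 fits. At an unadjusted p under 0.05, edgeR gave 10 members with a larger change in PGCs and 4 with a smaller one, beside 1.79% and 1.3% of all genes. The fit without a filter on low counts called 5 members for this difference, 4 of them higher, with 0.714% of the genes called in that fit. For patl2, with no soma counts at either stage, this difference could not be estimated.

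Among the gene lists of known function, that of oocyte and egg genes gave the most calls between PGCs and soma. Of 42 such genes tested, 9 were called higher in PGCs at 36 hpf and 5 at 24 hpf, and none lower. Of all genes, 0.506% were called higher at 36 hpf and 0.039% at 24 hpf. None of the 9 was a member: they were npm2b, PABPC1L, EIF4E1B, ca15b, DAZL, DND1, NANOS3, DDX4 and tdrd7a. All but npm2b, PABPC1L and EIF4E1B are also in the germ cell marker list, as are all 5 genes called at 24 hpf. Calls of such markers in sorted PGCs were largely built into the list. Of 60 genes of mRNA decay and translation repression, 2 were called higher at 36 hpf, patl2 and EIF4E1B. Of 30 chromatin and genome activation factors, nanog and npm2b were called higher.

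Of the 150 members, 100 matched a single RefSeq gene by symbol. Along the chromosomes of that annotation, 8 of the 100 had another member within 20 genes. The same count was not taken for other sets of genes, so it gives no measure of clustering. The closest were si:rp71-45k5.2 and zgc:113424, which are direct neighbours. Both were near 0 in soma and PGCs after 7 hpf, with at most 1.61 CPM in any late library. KANK1 and smarca2, 7 genes apart, took different courses, smarca2 being high in both cell types from 24 hpf on.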

How the data were processed

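The authors trimmed reads with TrimGalore, aligned them to danRer10 with STAR and quantified genes with RSEM; edgeR is also named in the submitters' processing notes. The authors deposited expected counts (RSEM estimates, not normalised), TPM values (scaled for length and to a common total) and effective lengths, RSEM's own score of usable transcript length in bases, per gene and library. Libraries were made from total RNA with a low-input kit, and the reads carry no molecular identifiers, so intervals cover counting error only.

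CPM for the member rule were taken over Ensembl genes without 2 genes, which held 0.0656% to 39.1% of a library's counts; 92 spike-in entries hold no counts. Expected counts were rounded, filtered with filterByExpr (20536 genes kept) and scaled by TMM, and edgeR 4.0.16 (R 4.3.3) fitted 1 factor of 8 groups to all 16 libraries. Standard errors follow from the F statistic, as the size of the log2 fold change over its square root. The fit was tried on simulated data for PGC against soma at 36 hpf and for 36 against 24 hpf in PGCs. It missed most of the changes put in, so a member not called may still differ. Alternatives were DESeq2 1.42.0, limma 3.58.1 on log2 TPM with pseudocounts of 1 and 0.1, other filters, other scalings (some for counts without overlap, added after seeing the data), a replicate block, and leaving out each library. The thresholds are those of the study's methods.

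The members and gene lists were chosen with earlier results of these data known. Named genes were the 10 lowest in mean change, the 5 highest at 4 hpf, 3 on each side of the edge and the extremes of each comparison. Also named were the 5 highest at 36 hpf in each cell type, list members, and members in the study's lists of genes upregulated in PGCs. Names come from a table of Ensembl identifiers; RefSeq (GRCz12tu) gave gene order only. The names behind 1 count of calls are not reported here.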

Additional observations from a re-analysis of the deposited data

How the results depend on the processing

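None of the 6 members called in PGC against soma at 36 hpf changed direction under any alternative. Nor did patl2 or PACSIN3, the members called for 36 against 24 hpf in PGCs. At 24 hpf the main fit called no member, so there was none to check. Members called only under an alternative were not checked for direction. In what follows the share of all genes called stands in brackets. For PGC against soma at 24 hpf, where edgeR called 0 members, DESeq2 called 1 (0.229%) and the fit without a filter on low counts 7 (0.437%). At 36 hpf, against 6 called, the counts were 20 in DESeq2 (2.97%), 28 with no filter (3.72%), 3 in limma on log2(TPM + 1) (3.15%), 1 with the libraries of 24 and 36 hpf only (0.126%) and 2 to 23 with single libraries left out. For 36 against 24 hpf in PGCs, against 2 called, they were 13 in DESeq2 (4.37%), 21 with no filter (4.44%), 9 and 4 in limma with pseudocounts of 1 (11.5%) and 0.1 (3.87%), 0 with 24 and 36 hpf only (0.348%) and 0 to 9 with single libraries left out. Neither limma fit called patl2 or PACSIN3. In soma, against 0, they were 4 in DESeq2 (1.5%), 11 with no filter (2.74%) and 1 with a replicate block (0.565%). For the difference of the changes there were 5 without a filter (0.714%). The causes were not tested.

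Replicate numbers share a stage or cell type but the labels do not say what they mark; same-numbered PGC and soma libraries deviated together with correlations of 0.41, 0.12, 0.31 and 0.28 at 4, 7, 24 and 36 hpf, over 2 pairs a stage. With the replicate block, 7 members were called at 36 hpf and 0 at 24 hpf in PGC against soma. Of all genes 0.653% and 0.039% were called in these fits. The 7 held 5 of the 6, without KANK1 (edgeR adjusted p = 0.0585), and with buc and si:ch211-137a8.2. The block gave 3 in PGCs and 1 in soma for 36 against 24 hpf, with 2.61% and 0.565% of all genes called.

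The choice of members depends on the scale: 61 of the 150 were chosen again on TPM, and 121 to 137 with a library left out. On TPM 154 genes met the minimum level and both thresholds, against 712 on CPM. The change of the members by 7 hpf was less dependent on it. On TPM 142 of the 150 were still at or under the threshold in PGCs, and 144 in soma. Most members thus fell steeply on TPM as well. In TPM the median member stood at 16.8, 1.5025, 0.45 and 2.25 in PGCs and at 12.8, 0.528, 0.5025 and 0.445 in soma at 4, 7, 24 and 36 hpf. The gene with the highest TPM took 18.8% to 46.6% of the total in the libraries of 4 and 7 hpf. Its effective length there was 1.55 to 3.53 bases. The part of this in the TPM results was not tested. On the TMM scale the median member stood at 57.0 CPM in PGCs at 4 hpf, 2.99 at 24 hpf and 4.89 at 36 hpf. In soma it stood at 2.32 at 24 hpf and 1.78 at 36 hpf. With 1 library left out, PGC medians ran from 6.399 to 8.52 CPM at 7 hpf, and soma medians from 2.22 to 2.29 at 24 hpf and from 2.15 to 2.32 at 36 hpf.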
